A study of Rattus norvegicus with 6 samples.

Results

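The 9 genes described here encode junction proteins of the blood-testis barrier, namely the claudins Cldn3, Cldn5 and Cldn11, occludin (Ocln), the immunoglobulin-like adhesion proteins F11r and Cxadr, the scaffold Tjp1, the gap junction protein Gja1 and N-cadherin (Cdh2). They were taken by symbol from the 35291 genes of the deposited table, and each symbol matched 1 gene. Levels were measured by RNA-Seq of whole testis from adult male Sprague-Dawley rats, 3 with diabetes (DM) and 3 non-diabetic (ND, titled Nor in the labels). The DM rats were fed a high-fat diet and then received streptozotocin, a toxin of the insulin-secreting beta cells, in 1 intraperitoneal dose of 35 mg/kg. Their testes were collected 8 weeks after it. The ND rats were injected with citrate buffer. Their diet and the ages of the rats were not given in the sources used here, so the effects of diet and of streptozotocin cannot be told apart. Each sample was taken as 1 rat, because the study describes RNA of animals from both groups and the labels number the samples within a group.

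The blood-testis barrier is formed by neighbouring Sertoli cells near the base of the seminiferous tubule, and it divides the epithelium into a basal compartment, where spermatogonia lie, and an adluminal compartment, where meiosis is completed and spermatids mature. Tight junctions, actin-rich adherens junctions known as the basal ectoplasmic specialization, gap junctions and desmosomes lie side by side in it. They are taken apart and rebuilt in each epithelial cycle as preleptotene spermatocytes cross, and testosterone is known to favour their assembly.

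None of the 8 junction genes that could be tested differed between DM and ND rats at an adjusted p-value below 0.05 in limma, against 0.0344% of the 20338 genes tested. At an unadjusted p-value below 0.05, 1 of the 8 was called, lower in DM, against 7.46% of all genes tested, which divide into 4.99% lower and 2.47% higher in DM. That gene was Gja1, whose mean level was 13.5 ± 1.52 FPKM (SD, n = 3) in DM and 16.9 ± 2.19 FPKM (SD, n = 3) in ND rats. Groups did not overlap for 2 of the 8, Gja1 (lower in DM) and Cdh2 (higher in DM), against 13.0% of all genes tested. The other 6 tested genes had overlapping groups, and Cldn5 was listed at 0 in every sample. FPKM, fragments per kilobase of transcript and per unit of library size, divides by transcript length, so levels can be compared between genes. Fold changes and their intervals are on the log2(FPKM + 0.1) scale throughout, as DM minus ND.

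The FPKM columns were alike in scale, though FPKM is already divided by library size, so this does not compare the libraries in depth. Column totals lay between 453304 and 478211 FPKM, and pairs of samples were about as closely correlated across genes within a group (0.958 to 0.965) as between groups (0.957 to 0.966). The table gives no counts, so the depth in reads is unknown and precision rests on the spread between 3 rats a group. The labels name testis as the tissue, but their extraction text speaks of an adipose type, so the tissue was checked against markers of testicular cells. The 8 spermatid markers summed to between 11868 and 14111 FPKM in the 6 samples, with the protamine gene Prm1 highest, and 16 Sertoli markers to between 508 and 622 FPKM, with Clu highest. In bulk RNA of a whole organ, fewer cells of a type and less RNA per cell cannot be told apart.

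The order of the levels was the same at its top and bottom in all 6 testes. Over the 6 samples the mean was 33.8 FPKM for Cldn11, 26.0 FPKM for Tjp1, 15.2 FPKM for Gja1, 14.7 FPKM for Cldn3 and 10.0 FPKM for F11r. It was 3.94 FPKM for Cdh2, 3.67 FPKM for Cxadr and 1.83 FPKM for Ocln. From Cldn11 to Ocln the means spanned 18.5-fold. Gja1 and Cldn3 were not separated, since their ranges overlapped and Gja1 was the higher in 4 of 6 samples. Cdh2 and Cxadr were not separated either, with Cdh2 higher in 5 of 6 samples. The ranges of Cldn3 and F11r overlapped between samples, but Cldn3 was the higher within each of the 6. All other neighbours in this order had ranges apart. Among the 8 genes the coefficient of variation over the 6 samples was smallest for Tjp1 at 3.61% and largest for Cldn3 at 23.8%.

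**Figure D1:**
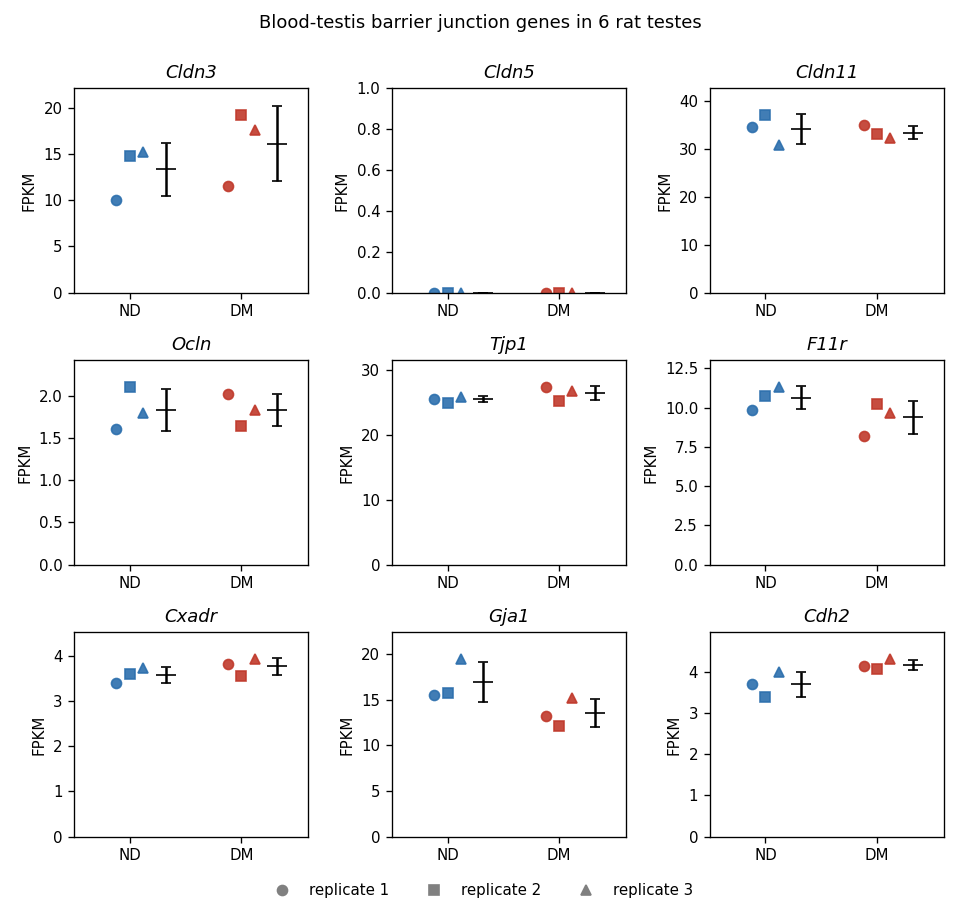
Levels of the 9 barrier junction genes in FPKM (vertical axes from 0, scaled for each gene) in 3 ND rats (blue) and 3 DM rats (red), with the mean and SD of each group in black and a symbol for each replicate number. Groups are apart for Gja1, which is lower in DM, and for Cdh2, which is higher in DM. They overlap for the others, and Cldn5 is listed at 0 in every sample.

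The claudins are the sealing proteins of the tight junction strands. Cldn11, the main claudin of Sertoli cells, without which spermatogenesis fails in mice, was the most abundant of the 9. Its level was 34.9, 33.0 and 32.3 FPKM in the DM rats and 34.6, 37.0 and 30.9 FPKM in the ND rats. The ND rats enclosed the DM rats on both sides, and the means were 33.4 ± 1.35 and 34.2 ± 3.10 FPKM (SD, n = 3 each). The log2 difference was -0.03 ± 0.08 (SE), a sign that turned under median-ratio scaling and without ND replicate 2, with a 95% interval of 0.858- to 1.12-fold (adjusted p = 0.967 from limma).

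Cldn3, a claudin of newly assembled junctions that is known in mice as a target of androgen signalling in Sertoli cells, was the most variable. It stood at 11.5, 19.2 and 17.6 FPKM in the DM rats and at 9.995, 14.8 and 15.2 FPKM in the ND rats. In both groups the rat numbered 1 was the lowest, and the ranges of the groups overlapped. The means were 16.1 ± 4.07 FPKM in DM and 13.3 ± 2.90 FPKM in ND (SD, n = 3 each), and the log2 difference of 0.26 ± 0.23 (SE) had an adjusted p-value of 0.877 from limma. Its 95% interval of 0.822- to 1.75-fold was the widest of the 8 genes. Without DM replicate 1 the log2 difference was 0.49 with an unadjusted p = 0.0437 in limma, and without ND replicate 1 it was 0.07. With the replicate number as a block, which the design does not provide, the unadjusted p was 0.0167 and the adjusted p 0.526 in limma.

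The balance of both claudins was also compared within samples. The ratio of Cldn3 to Cldn11 was 0.330, 0.583 and 0.545 in the DM rats and 0.289, 0.400 and 0.494 in the ND rats. These ranges overlapped, and the two-sided exact permutation test gave p = 0.5, where 0.1 is the smallest p-value that 3 against 3 allow.

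Cldn5, known above all as the claudin of endothelial cells and described in the mouse testis as well, was listed at 0 in each of the 6 samples. A listed 0 in this table does not show that a gene is silent. Of its 35291 genes, 4509 were listed at 0 in every sample, among them Nhp2, a component of the ribonucleoproteins that modify ribosomal RNA in every dividing cell. Endothelial markers were above 0, with Tek, the angiopoietin receptor, highest at a mean of 3.48 FPKM. Cldn5 was therefore neither tested nor given a fold change.

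Ocln encodes occludin, a membrane protein of the tight junction strands that is built like a claudin, and it was the least abundant of the 8 genes with values. Levels were 2.02, 1.64 and 1.82 FPKM in the DM rats and 1.599, 2.10 and 1.79 FPKM in the ND rats. The highest and the lowest of all 6 values both came from ND rats. The means were 1.83 ± 0.190 and 1.83 ± 0.253 FPKM (SD, n = 3 each), and the 95% interval of the difference ran from 0.755- to 1.32-fold (adjusted p = 0.999 from limma). The sign of this difference, near 0 in size, turned under median-ratio scaling and when DM replicate 2 or ND replicate 2 was left out.

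F11r and Cxadr belong to the immunoglobulin superfamily. F11r encodes junctional adhesion molecule A, which recruits polarity proteins to the tight junction and is also carried by sperm. Its level was 8.22, 10.3 and 9.68 FPKM in the DM rats and 9.87, 10.8 and 11.3 FPKM in the ND rats. The groups overlapped through DM replicate 2, which lay above ND replicate 1. The log2 difference was -0.18 ± 0.11 (SE), with a 95% interval of 0.739- to 1.05-fold (adjusted p = 0.79 from limma). It was negative under each of the alternatives tried, but shrank to -0.09 without DM replicate 1.

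Cxadr, the coxsackie and adenovirus receptor, is found at Sertoli cell junctions and on germ cells that pass through them. Values of 3.82, 3.56 and 3.93 FPKM in the DM rats stood beside 3.40, 3.60 and 3.74 FPKM in the ND rats. The groups overlapped, with DM replicate 2 below 2 of the ND rats. The log2 difference of 0.07 ± 0.11 (SE) had a 95% interval of 0.884- to 1.26-fold (adjusted p = 0.928 from limma).

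Tjp1 encodes zonula occludens 1 (ZO-1), the scaffold that ties claudins, occludin and junctional adhesion molecules to actin. It varied least of the 8, at 27.4, 25.2 and 26.8 FPKM in the DM rats and 25.6, 25.0 and 25.9 FPKM in the ND rats. All 6 values thus lay within a narrow band in which the groups overlapped. The log2 difference was 0.05 ± 0.06 (SE), and its 95% interval of 0.938- to 1.148-fold was the narrowest of the 8 genes (adjusted p = 0.916 from limma).

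Gja1 encodes connexin 43, the main connexin of Sertoli cells, which couples them to each other and to germ cells and is needed in them for spermatogenesis in mice. It is also made by Leydig cells. Levels were 13.2, 12.1 and 15.1 FPKM in the DM rats and 15.5, 15.7 and 19.4 FPKM in the ND rats. Each DM rat lay below each ND rat, though the gap between DM replicate 3 and ND replicate 1 was small beside the spread within the groups. Groups that did not overlap with DM the lower were seen in 8.42% of all genes tested. The ratio of the means was 0.799 and the log2 difference -0.32 ± 0.12 (SE), with a 95% interval of 0.658- to 0.975-fold. The unadjusted p was 0.0319 and the adjusted p 0.635 in limma, and the exact permutation test gave its smallest p-value of 0.1. Left without DM replicate 1, DM replicate 2 or ND replicate 3, the unadjusted p rose to 0.0751, 0.104 and 0.0967 in limma, and with eBayes without the trend to 0.0569. It fell to 0.0161 without DM replicate 3, and to 0.00586 with the replicate block, which the design does not provide. Over all alternatives the adjusted p ranged from 0.462 (replicate block) to 0.901 in limma, and the log2 difference was negative in each.

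Leydig cell and macrophage markers are given beside Gja1, because both cell types can carry connexin 43. The 7 Leydig markers matched, among them the steroidogenic enzymes Cyp17a1 and Cyp11a1, had sums of 30.5 to 65.2 FPKM in the DM rats and 91.9 to 127.8 FPKM in the ND rats. All 7 had an unadjusted p-value below 0.05 in limma, Cyp17a1 also an adjusted one (adjusted p = 0.0415), and none of the 7 was at 0. Hsd3b1, also listed, was not found among the gene symbols. Over all genes tested, 4.99% were called as lower in DM at the unadjusted threshold. The 8 macrophage markers summed to 27.7 to 33.4 FPKM in DM and 34.7 to 36.8 FPKM in ND rats, all 8 means were lower in DM, and 3 of 7 tested genes (Cd68, Csf1r and C1qa) had an unadjusted p-value below 0.05 in limma. None of the 7 had an adjusted one, and Mrc1, the most abundant, had an unadjusted p of 0.523. The part of Leydig cells and macrophages in the Gja1 difference was not tested.

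Cdh2 encodes N-cadherin, the main cadherin of the basal ectoplasmic specialization, which binds Sertoli cells to each other and to germ cells. It stood at 4.14, 4.07 and 4.31 FPKM in the DM rats and 3.71, 3.40 and 4.004 FPKM in the ND rats. Each DM rat lay above each ND rat, by a narrow margin over ND replicate 3. Groups apart in this direction were seen in 4.56% of all genes tested. The log2 difference was 0.17 ± 0.11 (SE) with a 95% interval of 0.940- to 1.35-fold (unadjusted p = 0.165, adjusted p = 0.814 from limma), and it stayed between 0.11 and 0.23 over the fits that each omitted 1 rat. Among 16 Sertoli markers, 11 had the higher mean in DM, as Cdh2 did, and 5 the lower mean, and the sums overlapped between groups. Of all 20338 genes tested, 9025 had a log2 difference above 0. The median log2 difference of the 15 tested Sertoli markers was 0.06, with 0 called as higher and 1 as lower in DM at the unadjusted threshold. The part of Sertoli cells in the Cdh2 difference was not tested.

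**Figure D2:**
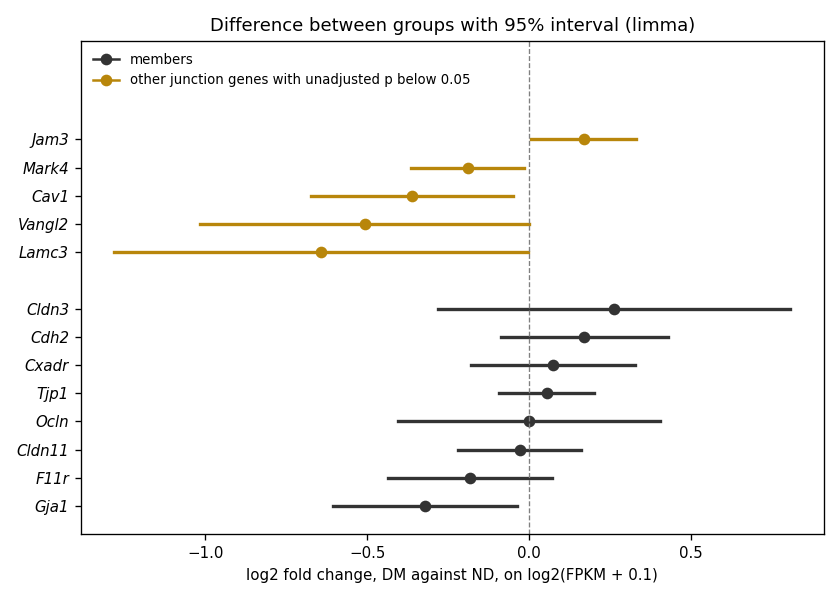
Log2 fold change of DM against ND on the log2(FPKM + 0.1) scale (horizontal axis) with its 95% interval from limma, for the 8 junction genes with values (black) and for 5 other barrier genes with an unadjusted p-value below 0.05 (ochre). The Gja1 interval, from -0.60 to -0.04, is the only black one that leaves out 0.

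Among the 8 tested genes, 4 had a log2 difference above 0 and 4 below it. Their median was 0.03, beside -0.02 over all genes tested, and the median of the absolute differences was 0.12, where all genes tested had 0.12.

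Levels were next set against the Sertoli content of each sample, taken as the mean log2(FPKM + 0.1) of the 15 Sertoli markers that passed the filter on low values. This mean was 3.41, 3.37 and 3.44 in the DM rats and 3.49, 3.41 and 3.17 in the ND rats, and the groups overlapped (difference 0.05, exact permutation p = 0.8). ND replicate 3 was the lowest of the 6. Relative to it, the log2 difference was -0.37 for Gja1 (exact permutation p = 0.2), -0.24 for F11r (exact permutation p = 0.3), 0.21 for Cldn3 (exact permutation p = 0.6) and 0.12 for Cdh2 (exact permutation p = 0.4). It was -0.08 for Cldn11, -0.05 for Ocln, 0.02 for Cxadr and 0.001 for Tjp1, with exact permutation p-values from 0.3 to 1. On this scale the groups overlapped for all 8 genes, including Gja1 and Cdh2. For Gja1 the overlap was slight, with DM replicate 3 at 0.489 and ND replicate 1 at 0.479. Rhox5, one of the 15 markers, stood at 1.22, 0.398 and 0.124 FPKM in the ND rats, the last close to the pseudocount of 0.1. The scale without Rhox5 was not tested. The values also depended on single rats. Without ND replicate 3 the difference was -0.18 for Gja1 and -0.10 for F11r, without ND replicate 2 it was 0.03 for Cdh2, and without ND replicate 1 that of Cldn3 turned to -0.05.

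The wider machinery of the barrier was read from 6 further lists with 109 symbols, of which 107 were found. They gave 109 entries, since Palld and Rps6 each label 2 genes of the table, and 83 entries passed the filter of a mean of at least 0.5 FPKM. None of the 83 had an adjusted p-value below 0.05 in limma. At an unadjusted p-value below 0.05, 1 was higher and 4 were lower in DM, which is 6.02% of the 83 beside 7.46% of all genes tested. Groups did not overlap for 12 of the 83, 3 higher and 9 lower in DM, beside 13.0% of all genes tested (4.56% higher and 8.42% lower). The median log2 difference was -0.04.

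Of 16 further tight junction membrane proteins, 6 passed the filter. The claudins Cldn1, Cldn2, Cldn4, Cldn7, Cldn10, Cldn15 and Cldn23 all had a mean below 0.5 FPKM, and Cldn12 reached 1.86 FPKM. Jam3, which encodes junctional adhesion molecule C and is needed for the polarity of round spermatids, was the entry called as higher. It was 1 of the 6 tested, beside 2.47% of all genes tested that were called as higher. Its level was 14.0, 13.2 and 13.6 FPKM in DM and 12.3, 12.3 and 11.7 FPKM in ND rats, so the groups did not overlap. Groups apart with DM the higher were seen in 4.56% of all genes tested. The log2 difference of Jam3 was 0.17 ± 0.07 (SE), with an unadjusted p of 0.0431 and an adjusted p of 0.661 in limma. Its relative Jam2 had means of 10.6 ± 1.11 FPKM in DM and 11.2 ± 0.749 FPKM in ND rats (SD, n = 3 each), and Igsf11, an adhesion protein of Sertoli cells, 24.3 ± 0.597 and 24.1 ± 1.39 FPKM.

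None of the 16 tested plaque and polarity genes was called at the unadjusted threshold, and their median log2 difference was 0.02. Cingulin (Cgn), which links the plaque to actomyosin, was at 24.4 ± 1.34 FPKM in DM and 24.5 ± 1.84 FPKM in ND rats (SD, n = 3 each). Groups were apart for 1 of the 16, beside 13.0% of all genes tested (8.42% lower in DM). The entry was Patj, a scaffold of the Crumbs polarity complex, which was lower in DM. It stood at 1.87, 1.80 and 1.99 FPKM in DM and 2.27, 2.48 and 2.05 FPKM in ND rats (unadjusted p = 0.125 in limma). Of 12 other connexin and pannexin genes matched, 4 passed the filter and none was called. Gjc1 (connexin 45) was the highest of them at a mean of 4.29 FPKM, below the 15.2 FPKM of Gja1.

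The adherens junction and ectoplasmic specialization list had 29 tested entries, of which 1 was called, as lower in DM. This was 3.45% of the entries, beside 7.46% of all genes tested (4.99% lower). The called entry was Lamc3, a laminin chain known at the apical ectoplasmic specialization. It stood at 1.12, 1.502 and 1.38 FPKM in DM and 2.53, 2.69 and 1.40 FPKM in ND rats. Its groups overlapped through ND replicate 3, which lay within the DM range, and the log2 difference was -0.64 ± 0.27 (SE, adjusted p = 0.667 from limma). Nectin3, the spermatid adhesion molecule that pairs with Sertoli Nectin2, was the most abundant gene of this list at 166.3 ± 7.31 FPKM in DM and 167.4 ± 5.16 FPKM in ND rats (SD, n = 3 each). The catenins, partners of the cadherins, were not called. Their log2 differences were -0.05 for Ctnnb1, -0.21 for Ctnna1, -0.06 for Ctnna2, -0.12 for Ctnnd1, 0.02 for Ctnnd2 and -0.18 for Jup. Groups were apart for 4 of the 29 entries, beside 13.0% of all genes tested. Ctnnd1 and Jup were lower in DM, and Eps8 and Cadm1 higher. The largest log2 difference in size, 1.06, belonged to the second of the Palld entries, which was not called (unadjusted p = 0.237 in limma). It rested on ND replicate 1, listed at 0.0264 FPKM beside 0.898 to 1.14 FPKM in the other 5 rats, and without that rat the log2 difference was 0.01.

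All 5 tested desmosome genes had log2 differences below 0, with a median of -0.25, and none was called. Of all 20338 genes tested, 11313 had a log2 difference below 0. Desmoplakin (Dsp), which anchors desmosomes to intermediate filaments, was at 1.66, 1.77 and 1.51 FPKM in DM and 1.98, 1.995 and 1.92 FPKM in ND rats. The desmosomal cadherin Dsg2 was at 1.21, 1.12 and 0.882 FPKM in DM and 1.32, 1.39 and 1.36 FPKM in ND rats. For both the groups did not overlap, while the unadjusted p-values in limma were 0.14 and 0.143. Groups apart with DM the lower were seen in 8.42% of all genes tested. The 8 markers of rete and excurrent duct epithelium, cells that also carry desmosomes, summed to 8.11 to 9.23 FPKM in DM and 9.71 to 10.9 FPKM in ND rats, and 6 of their 8 means were lower in DM. None was at 0 in every sample, but Krt18, Pax2, Krt7 and Pax8 were near it, with means of 0.00869 to 0.0647 FPKM, and did not pass the filter. None of the 4 tested markers was called. Krt19 and Epcam were the most abundant, at means of 3.53 and 4.745 FPKM. The part of these epithelial cells in the desmosome values was not tested.

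Among 23 tested kinases and regulators of the barrier, 3 were called, all as lower in DM, a direction in which 4.99% of all genes tested were called. Cav1, the coat protein of caveolae, was at 4.20, 3.38 and 4.49 FPKM in DM and 5.08, 5.50 and 4.90 FPKM in ND rats (log2 difference -0.36 ± 0.13 SE, adjusted p = 0.627 from limma). Mark4, a microtubule affinity-regulating kinase, was at 15.9, 14.4 and 16.3 FPKM in DM and 17.3, 18.3 and 17.6 FPKM in ND rats (log2 difference -0.19 ± 0.07 SE, adjusted p = 0.649 from limma). Vangl2, a planar cell polarity protein, was at 1.02, 1.09 and 0.862 FPKM in DM and 1.31, 1.29 and 1.79 FPKM in ND rats (log2 difference -0.51 ± 0.22 SE, adjusted p = 0.668 from limma). Groups were apart for each of these 3, and for 4 of the 23 in all, each lower in DM, beside 8.42% of all genes tested. Of the 5 calls over the 6 lists, none was left without DM replicate 2, without ND replicate 1 or without ND replicate 2, and only Cav1 was left without DM replicate 1. The kinases Ptk2 (focal adhesion kinase) and Src were not called, with log2 differences of -0.08 and 0.03. Ptk2 was the other gene of this list with groups apart.

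**Figure D3:**
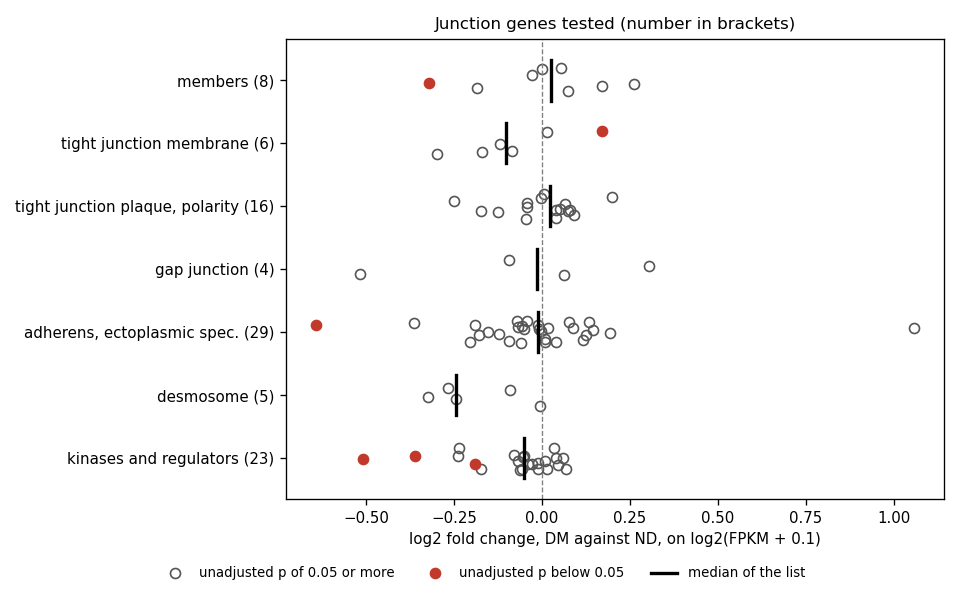
Log2 fold change of DM against ND on the log2(FPKM + 0.1) scale (horizontal axis) for each tested junction gene, by list, with the number tested in brackets. Filled red points have an unadjusted p-value below 0.05 in limma and black bars mark list medians, which lie between -0.25 (desmosome) and 0.03 (the 8 junction genes of the report, labelled members).

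The germ cell side of the junctions was described by marker sums. The 8 spermatocyte markers summed to 407 to 464 FPKM in DM and 426 to 465 FPKM in ND rats, and the 8 spermatid markers to 12363 to 13815 and 11868 to 14111 FPKM. Ranges overlapped for both, and none of their genes was called at the unadjusted threshold. The 8 spermatogonia markers summed to 57.9 to 69.4 FPKM in DM and 54.0 to 57.8 FPKM in ND rats. Uchl1, at a mean of 42.4 FPKM, was the largest part of these sums. It was called as higher in DM and Kit as lower (unadjusted p = 0.00805 and 0.0314 in limma). Over all genes tested, 2.47% were called as higher and 4.99% as lower. Of the 8 spermatogonia means, 3 were higher and 5 lower in DM, and the median log2 difference of the 6 tested was -0.17. Sertoli sums were 549.5 to 608 FPKM in DM and 508 to 622 FPKM in ND rats, with 1 of 15 tested genes called, the inhibin subunit gene Inha, which was lower in DM (unadjusted p = 0.0293 in limma). Peritubular markers summed to 99.96 to 113.2 FPKM in DM and 101.5 to 126.6 FPKM in ND rats, and endothelial markers to 10.4 to 11.8 and 9.86 to 13.2 FPKM. Among the endothelial markers, the receptor gene Flt1 was called as higher in DM (unadjusted p = 0.0168 in limma), as were 2.47% of all genes tested. Of the 9 endothelial means, 2 were higher and 7 lower in DM. The median log2 difference of the 7 tested was -0.17. The lists share Cdh5, Esam and Cdh1 with the junction lists above.

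**Figure D4:**
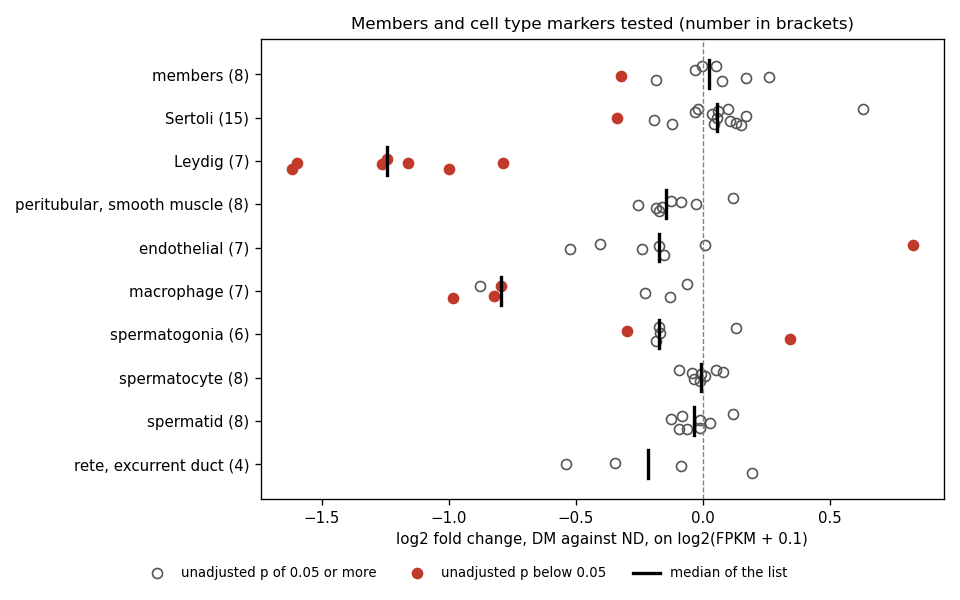
Log2 fold change of DM against ND on the log2(FPKM + 0.1) scale (horizontal axis) for the 8 junction genes (members) and for the tested markers of 9 cell types, with the number tested in brackets. Red points have an unadjusted p-value below 0.05 in limma and black bars are medians. The Leydig median is -1.24 and the macrophage median -0.80, while the junction genes and the Sertoli markers have medians of 0.03 and 0.06.

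The genes whose pattern over the 6 samples was most like a junction gene were listed for Gja1 and Cldn11, by Pearson correlation of log2(FPKM + 0.1) and as a description only, since 6 points from shared libraries allow many close matches. For Gja1, 46 genes reached an r of 0.95, led by the netrin receptor gene Dcc (r = 0.993), the AAA ATPase gene Fignl1 (r = 0.988) and AABR07006591.1 (r = 0.986). Dcc, the closest, stood at 1.13, 0.953 and 1.76 FPKM in DM and 1.70, 1.79 and 2.83 FPKM in ND rats, with ND replicate 3 highest as in Gja1. For Cldn11, 72 genes did so, led by the troponin gene Tnnc1 (r = 0.995), a further claudin-type gene, Cldn34b (r = 0.991), and the kinase gene Mapkapk2 (r = 0.987). Cldn34b was at 5.999, 5.20 and 4.64 FPKM in DM and 5.89, 7.11 and 4.39 FPKM in ND rats. Its groups overlapped, and ND replicate 2 was the highest and ND replicate 3 the lowest, as in Cldn11.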

How the data were processed

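Total RNA of 6 rat testes, 3 DM and 3 ND by the titles in the labels, was sequenced as paired ends. The authors used FastQC for quality control, BWA for a comparison with rRNA, STAR for alignment and StringTie for assembly, and deposited FPKM per gene. Versions and genome build were not given in the sources used here, so no coordinates are printed. The small RNA libraries were not used here.

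Values were transformed to log2(FPKM + 0.1), and limma 3.58.1 in R 4.3.3 (lmFit, eBayes with trend, two-sided) was fitted to the 20338 genes whose mean reached 0.5 FPKM. P-values were adjusted over all of these genes by the Benjamini-Hochberg method. Intervals are 95% intervals of that fit. Single values were compared by exact permutation (scipy 1.17.1, Python 3.11.15), which cannot give a p-value under 0.1. The limma fit was tested on simulated data, and the other steps were not. No block was used for the replicate number, which names different rats. Count models were not run, since the table holds no counts.

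The junction genes, the 6 further lists, the 9 marker lists and the tests were chosen with earlier results of these data known. Of the listed markers, Etd (Sertoli), Hsd3b1 (Leydig) and Pecam1 (endothelial) were not found among the gene symbols. All 9 junction genes were named, then up to 16 genes of the further lists by the smallest unadjusted p below 0.05, the 3 genes most correlated with Gja1 (smallest unadjusted p) and with Cldn11, and the highest and lowest gene of each marker list. Other genes were named after their values were seen, as examples of their list. For the markers these were, from highest to lowest mean, Clu and Amh (Sertoli), Star and Hsd17b3 (Leydig), Acta2 and Cnn1 (peritubular), Tek and Kdr (endothelial), Mrc1 and Cd14 (macrophage), Uchl1 and Sall4 (spermatogonia), Sycp3 and Spo11 (spermatocyte), Prm1 and Spaca1 (spermatid), and Epcam and Krt18 (rete and excurrent duct).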

Additional observations from a re-analysis of the deposited data

How the results depend on the processing

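There were 14 alternatives: pseudocounts of 1 and 0.01, dropping the filter or raising it to 1 FPKM, scaling to TPM or by median ratios, eBayes without the trend, the replicate number as a block, and the omission of each rat in turn. Under each of them 0 of the 8 junction genes had an adjusted p-value below 0.05 in limma, and 6 of the 8 kept the sign of their log2 difference. Median-ratio scaling, which moved the median of all genes from -0.02 to 0.008, turned the log2 difference of Cldn11 to 1.9e-05 and that of Ocln to 0.0269. Leaving out each rat gave -0.1004 to 0.0306 for Cldn11 and -0.0894 to 0.0973 for Ocln, the latter also positive (0.0712) without DM replicate 2. Junction genes with an unadjusted p-value below 0.05, 1 in the report, numbered 0 with eBayes without the trend, 2 with the replicate block (Cldn3 and Gja1) and 0 to 1 when each rat was left out. In the further lists 5 genes were called in the report. Of these 3 were called without a filter, 3 with the filter at 1 FPKM, 2 with median-ratio scaling and 0 with the replicate block, and no others were. Between 0 and 5 were called when each rat was left out, and the 5 without DM replicate 3, like the 5 without ND replicate 3, held only 2 of those in the report. With eBayes without the trend 6 were called, 2 of them shared with the report. The cause of these shifts was not tested. Deviations of DM and ND rats with the same number correlated at 0.106, 0.015 and 0.098, beside -0.126 to 0.032 for rats with different numbers. These values do not settle whether rats with the same number share a source of variation. The numbers were not taken to pair the rats, because they name different rats. With 3 rats a group and no counts, depth limits cannot be given, and the interval of each difference is the measure of precision.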
